A study of Homo sapiens with 6 samples.

Results

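Serpins and cystatins are the main families of genes for inhibitors of serine and cysteine proteases. Members were the protein-coding genes of the expression table whose symbol begins with SERPIN, or with CST and a digit, or is CSTA or CSTB. They numbered 47 of 58735 genes, 34 serpins and 13 cystatins. Membership rested on the name and the biotype, and not on any measured value.

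A serpin presents a flexible loop as bait to a protease, and after cleavage it traps the enzyme in an inactive covalent complex. Some serpins have lost this activity and serve as hormone carriers or chaperones. Cystatins wedge reversibly into the active site of papain-like enzymes such as the lysosomal cathepsins. The CST genes make secreted cystatins, while CSTA and CSTB make stefins, which lack a signal peptide and stay inside the cell. In colorectal tumours these inhibitors are studied for their part in pericellular proteolysis, invasion and escape from cytotoxic lymphocytes.

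RNA was sequenced from 6 libraries of SW480, a human line established from a colorectal adenocarcinoma. By their titles and genotype labels, 3 libraries were of cells with DDX39B overexpression and 3 of control cells with the genotype WT. All were grown in L-15 medium with serum. The question in the labels is which genes differ in expression after DDX39B, an RNA helicase, is overexpressed. The sources used here do not give the way in which it was overexpressed, nor whether the libraries came from separate cultures or clones, so p-values measure the spread between these libraries only, which may be technical. In such bulk RNA, fewer cells of a type and less RNA per cell cannot be told apart.

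DDX39B itself went against the labels. In FPKM, which scales reads to gene length and library size, it measured 15.02, 13.9 and 14.03 in the libraries labelled overexpression and 39.3, 34.6 and 41.9 in those labelled control. It was 2.70-fold lower under the overexpression label, and the directions below follow the labels nonetheless. Depth was even, at 16963075 to 17463697 reads per library, as worked out from the FPKM values and gene lengths. The groups differed in most genes: of the 13972 genes whose mean reached 1 FPKM, 76.8% had an adjusted p under 0.05 in limma's test on log2(FPKM + 1). By direction, 39.3% were lower and 37.5% higher (5485 and 5241 genes), a balance that turned to 4965 lower and 5816 higher when the read sum replaced the deposited FPKM denominator, and to 5006 and 5804 with voom on the reads. Of 8 colon epithelial markers, 6 reached a mean of 1 FPKM and these 6 were higher under the overexpression label, CDX2, CDH1 and VIL1 passing that filter only through the group where they were higher. KRT20, below the filter, was 14.2-fold lower, with 6 reads against 80. Their summed level was 1478 to 1496 FPKM in the overexpression-labelled and 357 to 430.2 FPKM in the control-labelled libraries, and the intestinal factor CDX2 had 0 reads in the latter. The identity of the cells under each label and the labelled treatment cannot be told apart.

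The sequences shown first are short windows upstream of genes to which the results return. SERPINH1, which encodes a collagen chaperone that is also a heat shock protein, is shown for a heat shock element. SERPINB9, SERPINB1 and SERPINB6 are shown because they lie side by side on chromosome 6 and differed in expression. Each window is 30 bases long, 5′ to 3′ on the strand of the gene, from RefSeq on GRCh38.p14. Capitals mark TATAAA in SERPINB9 and, in SERPINH1, a match on the reverse strand to a heat shock element, spelled as GAA, NN, TTC, NN and GAA in a row. The windows of SERPINB1 and SERPINB6 have no TATAAA.
SERPINH1: tttccaactTTCCAGAAGTTTCtcgggacg
SERPINB9: gaccctgcggTATAAAagcggtgcctgcag
SERPINB1: ttccgcctgctataagagcagcggccctcg
SERPINB6: cccgcgagtatttgaggtccggggcggctc
The SERPINH1 window is chr11:75562168-75562197, from 85 to 56 bases before the RefSeq start. Those of SERPINB9, SERPINB1 and SERPINB6 are chr6:2903320-2903349, chr6:2841874-2841903 and chr6:2971578-2971607, each from 40 to 11 bases before the start. RefSeq promoters were matched for 32 of the 47 members. In the 100 bases before the start, that heat shock element, on either strand, occurred in 1 of these 32 (SERPINH1) and in 0.172% of 27305 RefSeq promoters. TATAAA, on either strand, occurred in 3 of the 32 (SERPINB9, SERPINB2 and SERPINA7) and in 5.34% of all. Such matches describe letters only. Longer annotated transcripts of SERPINH1, SERPINB1 and SERPINB6 begin further upstream, and the start used by these cells was not tested.

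Of the 47 members, 20 reached a mean of 1 FPKM and were tested, 12 serpins and 8 cystatins. All 20 had an adjusted p under 0.05, against 76.8% of all genes tested, and in all 20 the groups did not overlap, against 80.1%. Higher under the overexpression label were 15 and lower 5. The median log2 fold change was 2.23, against -0.03 over all genes tested. These counts are a description, since 13 of the 20 reached the filter only through the group where they were higher and so had to differ. The 13 were CST1, CST4, CST5, CST6, CST7, CSTA, SERPINA1, SERPINB5, SERPINB8, SERPINB9, SERPINF1, SERPINF2 and SERPINI1. The folds and p-values given for them below carry that limit. Of the 7 members at 1 FPKM or more in both groups, 4 were higher, CST3, SERPINB1 and CSTB among them, and 3 were lower (SERPINH1, SERPINE2 and SERPINB6). The member just inside the filter was SERPINB8, with a mean of 1.08 FPKM, and the next below it was SERPING1, with 0.48 FPKM. With no filter, 36 members had reads and were tested, 20 were higher and 5 lower, where 44.5% of all genes with reads passed.

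**Figure D1:**
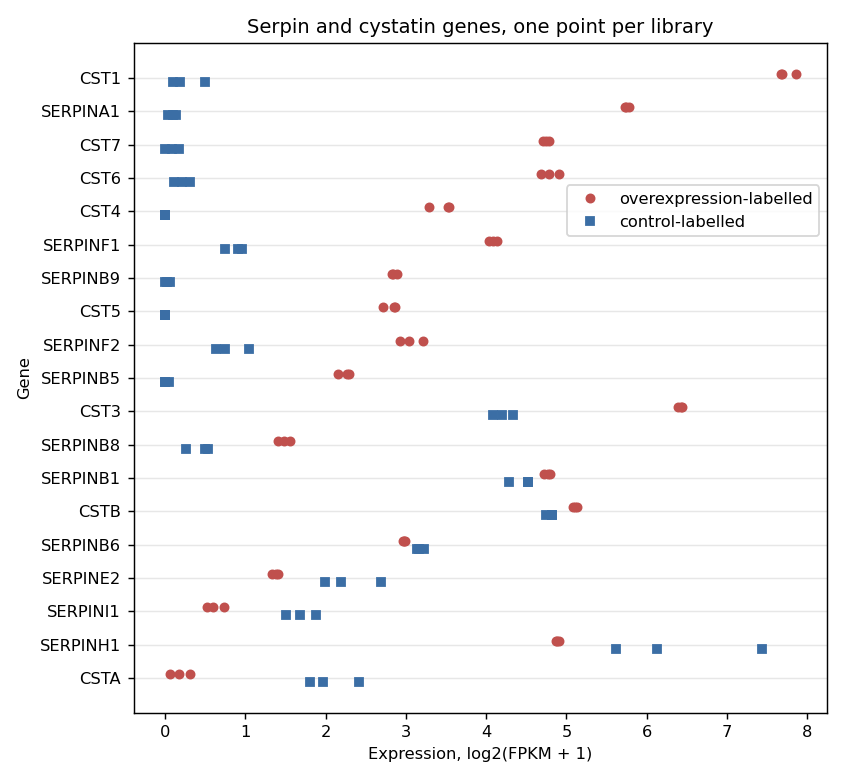
Expression of 19 of the 20 tested members as log2(FPKM + 1) on the horizontal axis, with a circle for each of the 3 overexpression-labelled libraries and a square for each of the 3 control-labelled libraries. Genes are ordered by their difference, and for every gene the circles and squares do not overlap; SERPINH1 shows a wide spread of squares.

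The balance of the cystatins differed between the groups. Summed over the 13 cystatins, expression was 390.3 to 417 FPKM under the overexpression label and 47.7 to 48.4 FPKM under the control label. CST1 held 52.0% to 55.4% of the first sum and CSTB, the stefin B gene, 53.5% to 57.1% of the second. The most abundant cystatin mRNA was thus that of a secreted inhibitor in the former libraries and of an intracellular inhibitor in the latter.

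**Figure D2:**
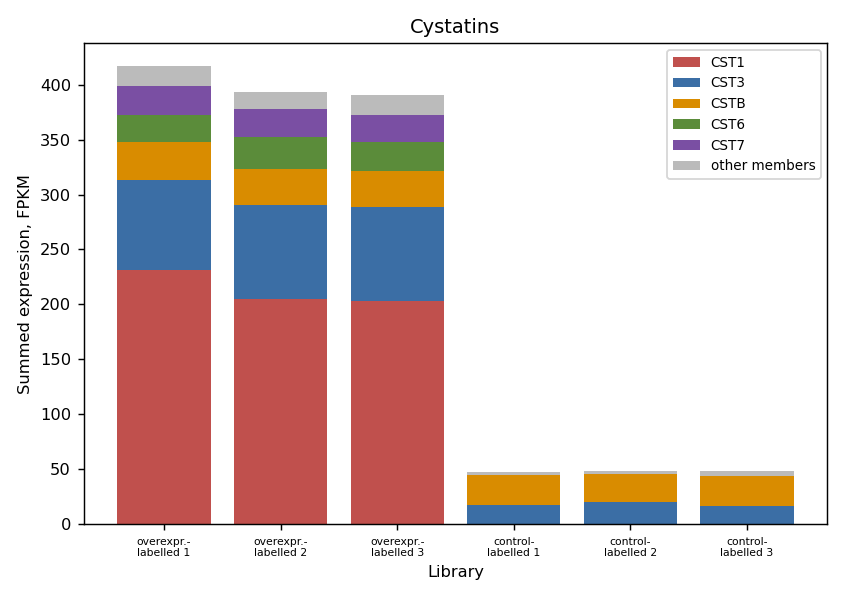
Summed FPKM of the cystatins in each of the 6 libraries, with coloured segments for 5 named genes and grey for all other members. CST1 fills most of the taller bars of the overexpression-labelled libraries, while CSTB and CST3 fill most of the control-labelled ones.

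Several serpins regulate the plasminogen activators, the enzymes that turn plasminogen into the fibrin-degrading protease plasmin. SERPINE2, protease nexin 1, a cell-surface inhibitor of thrombin and urokinase, was lower under the overexpression label. It measured 1.61, 1.51 and 1.64 FPKM under the overexpression label and 3.55, 2.97 and 5.45 FPKM under the control label. Its groups did not overlap, and it was 2.51-fold lower (log2 fold change -0.92 with an SE of 0.17, adjusted p = 2.59e-03 by limma). SERPINI1, neuroserpin, an inhibitor of tissue plasminogen activator best known from neurons, was also lower. Its values were 0.516, 0.664 and 0.44 FPKM against 2.21, 2.67 and 1.83 FPKM, a 4.14-fold difference (limma adjusted p = 1.82e-04). SERPINI1 reached the filter only through the control-labelled group, and so had to differ. SERPINE3, which shares 26.8% of its 50-base words with the antisense gene INTS6, had 19 reads against 2, and was below the filter, as was SERPINB2, with 4 reads against 0.

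SERPINF1 and SERPINF2 are neighbours on chromosome 17 and were both higher under the overexpression label. SERPINF2 makes the plasmin inhibitor alpha-2-antiplasmin, and SERPINF1 makes pigment epithelium-derived factor, a secreted serpin without protease inhibitor activity that restrains blood vessel growth. SERPINF1 measured 15.4, 16.5 and 15.96 FPKM against 0.94, 0.676 and 0.876 FPKM, and was 19.2-fold higher (log2 fold change 3.21 with an SE of 0.075, adjusted p = 1.29e-07 by limma). SERPINF2 measured 8.26, 7.21 and 6.58 FPKM against 0.679, 0.555 and 1.07 FPKM, and was 9.57-fold higher (limma adjusted p = 6.89e-06). In both genes the highest control-labelled library lay far under the lowest overexpression-labelled one. Both reached the filter only through the group where they were higher, and so had to differ.

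Genes of the plasminogen system outside the families were listed beside these serpins. Of 9 listed, 7 were tested, 5 were higher and 1 was lower under the overexpression label, where 76.8% of all genes tested passed. The 7 had a median log2 fold change of 1.26. PLAU, the urokinase gene, was 5.82-fold higher (7.87 ± 0.57 against 1.35 ± 0.40 FPKM). PLAT, the gene of tissue plasminogen activator, was 4.40-fold higher, and reached the filter only through the group where it was higher. ANXA2 and S100A10, whose proteins form a receptor for plasminogen at the cell surface, were 4.77-fold and 3.12-fold higher. LRP1, the receptor that clears serpin and protease complexes, was the tested gene that fell, 7.75-fold, from 15.4 ± 2.5 to 1.98 ± 0.15 FPKM. VTN, the gene of vitronectin, was below the filter and not tested, at 0.054 ± 0.027 against 1.71 ± 0.32 FPKM, a 31.7-fold lower level from 7 reads against 207. With no filter, with TPM and with any overexpression-labelled library left out, it entered the test, and 2 genes were then lower. PLG, the plasminogen gene, had 0 reads in all 6 libraries, and PLGRKT did not pass (5.13 ± 0.21 against 4.82 ± 0.15 FPKM, adjusted p = 0.276). With the read sum as the FPKM denominator, PLGRKT passed too, as 6 genes were then higher.

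SERPINH1 (ENSG00000149257, chromosome 11, 75562056 to 75572783, plus strand, GRCh38) encodes a chaperone of the endoplasmic reticulum that binds folded collagen and inhibits no protease. It measured 28.3, 28.4 and 28.96 FPKM under the overexpression label and 68.8, 48.01 and 173 FPKM under the control label. The first group was tight and lay below the second throughout, whereas the control-labelled libraries spread 3.60-fold. Mean levels were 28.5 ± 0.38 and 96.5 ± 66.8 FPKM (± SD, n = 3 in each group), which gave a 3.38-fold difference (log2 fold change -1.51, SE 0.43, adjusted p = 0.0157 by limma). Without the third control-labelled library the difference was 2.05-fold (log2 fold change -0.99, adjusted p = 1.11e-03).

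Heat shock genes spread over the control-labelled libraries in the same order as SERPINH1. Relative to the second control-labelled library, the first and the third stood at 1.43 and 3.60 for SERPINH1. HSPA1A, the gene of an inducible cytosolic chaperone, stood at 2.06 and 4.41, and DNAJB1, its co-chaperone, at 1.87 and 4.40. SERPINE2 stood at 1.19 and 1.83, again in that order. It also held in members that were higher under the overexpression label. Among them were SERPINB8 (2.13 and 2.34), SERPINF2 (1.22 and 1.93) and CSTB (1.05 and 1.06). The order was shared by 7 of the 20 tested members and by 29.8% of all tested genes. HSPA1A measured 14.5 to 15.7 FPKM under the overexpression label and 414, 201 and 885 FPKM under the control label, and HSPA1B is a near-identical gene whose reads it may share. Of 6 heat shock genes, 5 were lower under the overexpression label and HSPH1 did not pass, where 76.8% of all genes tested passed. Among the 6, HSPA6 reached the filter only through the control-labelled group. The part of the heat shock response in the SERPINH1 difference was not tested. The heat shock element printed above is given only beside these values.

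**Figure D3:**
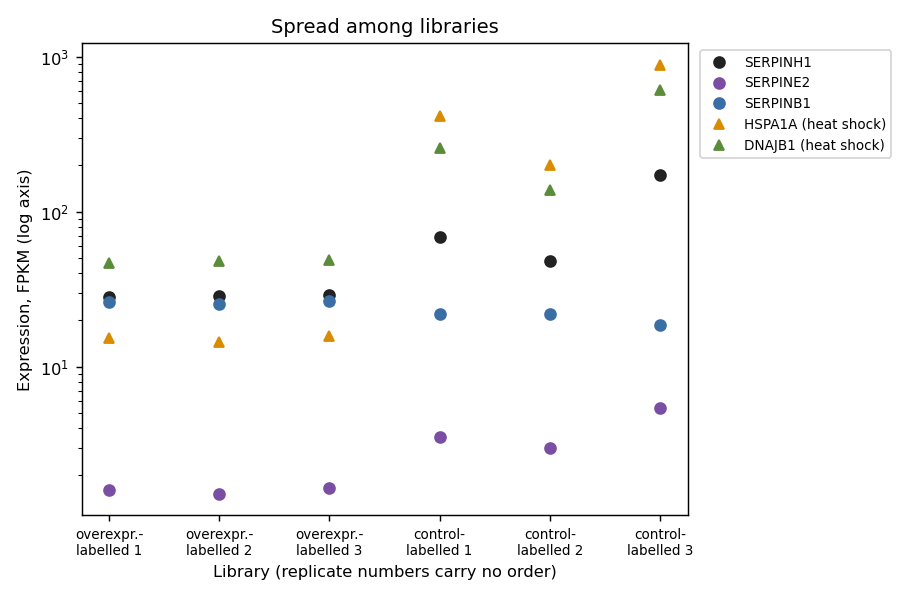
FPKM on a log axis in each of the 6 libraries for 3 serpins (circles) and 2 heat shock genes (triangles). The points of the overexpression-labelled libraries are level within each gene, while SERPINH1, SERPINE2, HSPA1A and DNAJB1 were highest in the third and lowest in the second control-labelled library; SERPINB1 was not.

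Collagen folding genes, with which SERPINH1 acts, were 2 higher and 9 lower of 12 tested, where 76.8% of all genes tested passed. The 12 had a median log2 fold change of -0.65. P4HA3 and P4HA1, which encode catalytic subunits of prolyl 4-hydroxylase, were 44.8-fold and 3.40-fold lower. PLOD2, the gene of a lysyl hydroxylase, was 48.3-fold lower (0.095 ± 0.026 against 4.59 ± 0.64 FPKM) and COLGALT1, the gene of a collagen galactosyltransferase, 2.53-fold lower. P4HA3 and PLOD2 reached the filter only through the group where they were higher, and so had to differ. CRTAP did not pass (39.4 ± 0.28 against 42.6 ± 0.95 FPKM, adjusted p = 0.0547), but 10 genes were lower, CRTAP among them, with a pseudocount of 0.1, with no filter, with TPM and without the third control-labelled library. The 2 that were higher were P4HA2 and PLOD3. The summed level of 6 fibroblast markers, cells rich in these genes, was 1.54 to 1.67 FPKM against 4.29 to 8.20 FPKM, with 0 of the 6 at 0 reads throughout. COL1A1 (1.21 ± 0.099 against 4.85 ± 1.48 FPKM) and PDGFRB (0.20 ± 0.039 against 1.41 ± 0.51 FPKM) made up most of that sum. LUM ran the other way, with 29 reads against 1, and COL1A2 had 3 against 3. Over 6 endothelial markers the sum was 1.04 to 1.43 FPKM against 36.2 to 50.6 FPKM. ESAM alone gave nearly all of the control-labelled sum (43.5 ± 7.4 FPKM), VWF ran the other way, 12.7-fold higher from 326 reads against 24, and KDR had 0 reads. Their part in these differences was not tested.

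The clade A serpins lie in a cluster on chromosome 14, apart from SERPINA7, and encode mostly plasma proteins made by the liver. SERPINA1 (ENSG00000197249, chromosome 14, 94376747 to 94390693, minus strand) makes alpha-1-antitrypsin, the main inhibitor of neutrophil elastase. It measured 52.5, 51.9 and 53.7 FPKM under the overexpression label and 0.10, 0.024 and 0.073 FPKM under the control label. The gene was close to undetected in the second group, with 16 reads in 3 libraries against 13834. The difference was 801-fold, with a log2 fold change of 5.66 with an SE of 0.055 (adjusted p = 8.87e-09 by limma).

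Its neighbours were scarce throughout. The cluster held 9 members over 344 kilobases, and 8 of them had 0 reads in the control-labelled libraries. Under the overexpression label SERPINA10, an inhibitor of coagulation factor X, had 60 reads, SERPINA5, the protein C inhibitor, 49 and SERPINA6, the cortisol carrier, 16. These 3 genes were at least 18.6-fold, at least 15.2-fold and at least 4.97-fold higher, taking a floor of 3 reads over the group. SERPINA12 had 5 reads, SERPINA3 and SERPINA4 had 2 each, SERPINA11 had 1 and SERPINA9 had 0. SERPINA7, the thyroxine carrier on the X chromosome, had 0 reads in all libraries. SERPINA3, the antichymotrypsin gene, shares 29.5% of its 50-base words with an overlapping annotated gene.

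Hepatocyte markers did not accompany SERPINA1 as a set. Of 8 markers, 1 reached a mean of 1 FPKM, HNF4A, a factor that the gut epithelium also expresses, at 5.74 ± 0.097 against 0.70 ± 0.32 FPKM. Over all 8 the summed level was 5.79 to 5.88 FPKM against 0.519 to 1.17 FPKM. APOB and TTR had 0 reads in all 6 libraries, and ALB, the albumin gene, had 2 reads against 1. Among the other plasma serpins, SERPINC1, the antithrombin gene, had 2 reads against 1 and SERPIND1, heparin cofactor II, 9 against 16. SERPING1, the inhibitor of complement C1, had 151 reads against 32 (0.78 ± 0.20 against 0.18 ± 0.089 FPKM).

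**Figure D4:**
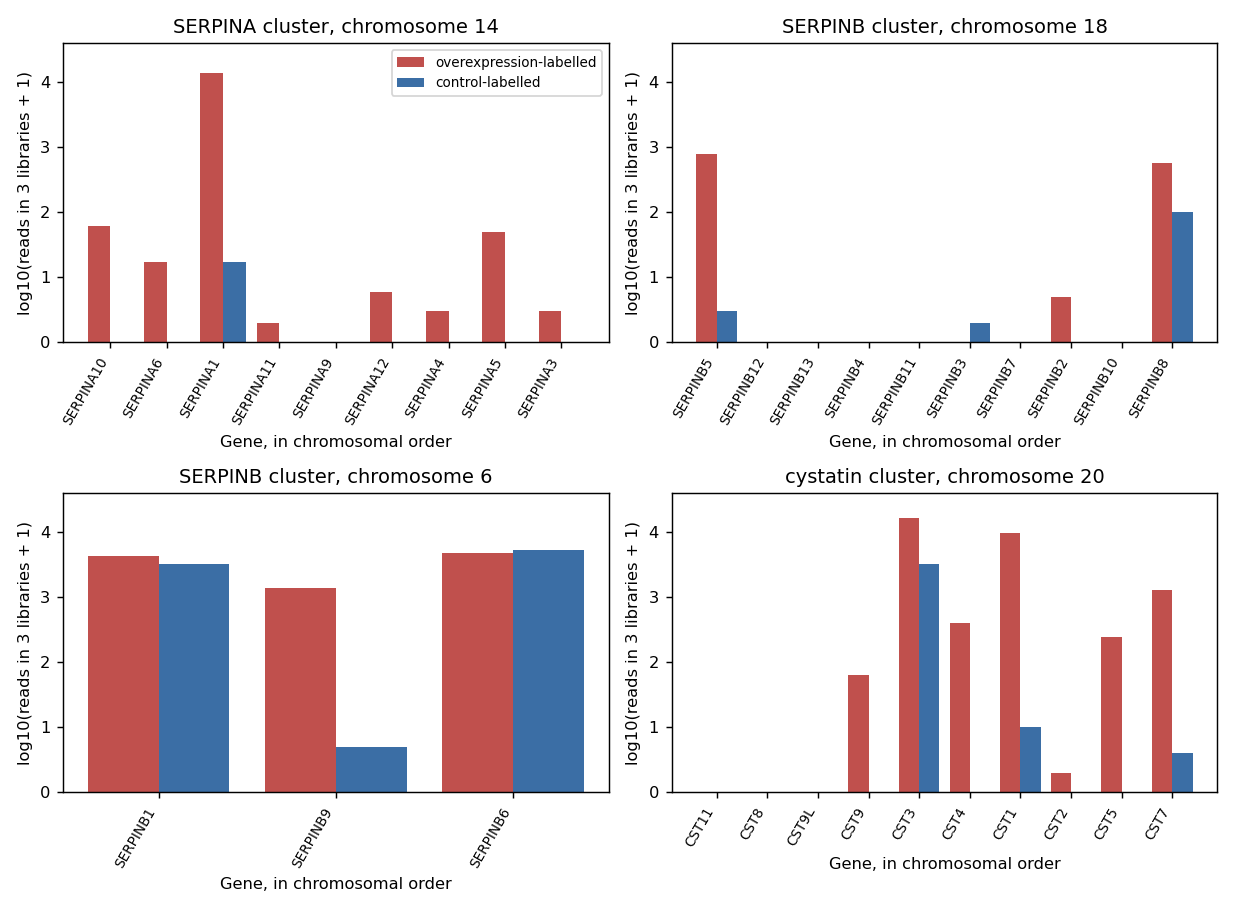
Reads summed over the 3 libraries of each group, as log10(reads + 1), for members in their order along 4 chromosomal clusters. On chromosome 14 a single tall gene, SERPINA1, stands among scarce ones; on chromosome 6 SERPINB9 differs between the groups while both neighbours are level; on chromosome 20 blue bars are seen at CST3, CST1 and CST7 only.

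Clade B serpins lack a classical signal peptide and act mostly inside cells. Of 13 members, 10 lie on chromosome 18 and 3 on chromosome 6. SERPINB9, SERPINB1 and SERPINB6, whose upstream windows are printed above, span 139.8 kilobases of chromosome 6. SERPINB9 (ENSG00000170542, chromosome 6, 2887266 to 2903280, minus strand) inhibits granzyme B, and so protects cells from cytotoxic granules. It measured 6.18, 6.10 and 6.40 FPKM under the overexpression label and 0, 0.043 and 0.015 FPKM under the control label. The gene was thus near absent from the control-labelled libraries, at 4 reads against 1374. It was 324-fold higher (log2 fold change 2.83 with an SE of 0.066, adjusted p = 1.31e-07 by limma), and 859-fold higher without the second control-labelled library, where 3 of the 4 reads lay.

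SERPINB1, an inhibitor of neutrophil elastase and cathepsin G, measured 26.3, 25.3 and 26.7 FPKM against 21.9, 21.9 and 18.6 FPKM. It was 1.26-fold higher, a log2 fold change of 0.32 with a 95% interval of 0.14 to 0.50 (limma adjusted p = 6.82e-03). SERPINB6, another inhibitor of cathepsin G, measured 6.89, 6.95 and 6.82 FPKM against 7.99, 8.35 and 7.83 FPKM, a 1.17-fold lower level (log2 fold change -0.20, 95% interval -0.32 to -0.07, limma adjusted p = 0.0108). That call was lost when the read sum replaced the deposited FPKM denominator (-0.10, adjusted p = 0.132) and with voom on the reads (-0.12, adjusted p = 0.101). Both genes differed little next to SERPINB9, whose interval on the log2(FPKM + 1) scale ran from 2.67 to 2.99. That scale understates changes of low genes. SERPINB9 stood at a log2 fold change of 5.75 with a pseudocount of 0.1 and at 8.38 with voom. In coding sequence SERPINB9 was 69.0% identical to SERPINB6 and 62.3% to SERPINB1.

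On chromosome 18 the cluster held 10 members over 543 kilobases, of which SERPINB5 and SERPINB8, at its ends, were tested. SERPINB5, the maspin gene, described as a tumour suppressor in breast epithelium, measured 3.89, 3.46 and 3.79 FPKM against 0, 0 and 0.030 FPKM. It had 783 reads against 2, both in the third control-labelled library, and was 367-fold higher (95% counting interval 101.3 to 3037). Without that library the control-labelled group had 0 reads. SERPINB8, which can inhibit furin, measured 1.94, 1.80 and 1.66 FPKM against 0.408, 0.192 and 0.448 FPKM, a 5.16-fold difference (limma adjusted p = 9.81e-05), and shares 8.92% of its 50-base words with other genes. Between these ends, SERPINB4, SERPINB7, SERPINB10, SERPINB11, SERPINB12 and SERPINB13 had 0 reads in all libraries and SERPINB3 had 1. SERPINB3 and SERPINB4, the squamous cell carcinoma antigens, are 95.2% identical in coding sequence.

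Several of these silent genes are known from squamous epithelium, whose markers did not move as a set. Of 6 squamous markers, KRT5 alone reached 1 FPKM, at 579 ± 30.9 against 0.38 ± 0.18 FPKM, and it made up nearly all of the summed level of 552 to 613 FPKM against 0.706 to 1.49 FPKM. KRT14 ran the same way as KRT5, with 30 reads against 1, and DSG3 had 3 against 1. IVL and SPRR1A had 0 reads, and TP63 ran the other way, with 2 reads against 242. A count of 0 reads in a library allowed up to 3 reads, which for a gene of 1 kilobase is 0.166 to 0.184 FPKM.

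Granzyme and caspase genes were listed beside the clade B inhibitors. GZMB, the target of SERPINB9, was below the filter and not tested. It measured 1.21, 0.51 and 0.476 FPKM under the overexpression label, from 55 reads, while the control-labelled libraries held 0 reads of it. Of 11 caspases, 8 were tested, 3 were higher and 4 lower, where 76.8% of all genes tested passed. The 8 had a median log2 fold change of -0.63. CASP1 and CASP4, which act in inflammatory cell death, were 805-fold (95% counting interval 144 to 31820, from 1 read) and 18.7-fold lower, and CASP9, an initiator of apoptosis, was 6.08-fold lower. CASP1 and CASP4 reached the filter only through the group where they were higher, and so had to differ. CASP2 did not pass (9.75 ± 0.86 against 10.4 ± 0.56 FPKM).

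Secreted cystatins formed the other large group of genes that were higher under the overexpression label. CST1 (ENSG00000170373, chromosome 20, 23747553 to 23751268, minus strand) makes cystatin SN, a salivary inhibitor that has been studied as a marker of gastrointestinal cancers. It measured 231, 205 and 203 FPKM under the overexpression label and 0.070, 0.41 and 0.14 FPKM under the control label. CST1 was the member with the largest log2 fold change, 7.48 with an SE of 0.11 (adjusted p = 2.65e-08 by limma), with 9947 reads against 9. The ratio of the means was 1039, and 2055 without the second control-labelled library, which held 6 of the 9 reads.

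CST4 (cystatin S) and CST5 (cystatin D) lie on either side of CST1 and, under the control label, had 0 reads. CST4 measured 10.6, 8.77 and 10.5 FPKM under the overexpression label, from 400 reads, and was at least 124-fold higher (log2 fold change 3.45 with an SE of 0.086, adjusted p = 1.68e-07 by limma). CST5 measured 6.23, 5.57 and 6.29 FPKM, from 244 reads, and was at least 75.8-fold higher (limma adjusted p = 2.1e-07). CST2 (cystatin SA), which lies between CST1 and CST5, had 1 read in all 6 libraries.

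Reads of CST1 and CST4 may be shared. Their coding sequences are 92.7% identical. CST1 transcripts hold 27.4% of the 50-base words of CST4 transcripts, and CST4 transcripts hold 23.3% of those of CST1. CST2 is 91.3% identical to CST1 and shares 5.44% of its words with it. CST5 shares 0.283% of its words with other genes and is 71.9% identical to CST1. The levels of CST4 and CST1 are therefore less certain than that of CST5. Under the overexpression label CST4 had 400 reads and CST1 9947, so reads assigned to the wrong gene would weigh more on CST4. The sources used here do not say how reads with more than 1 match were counted.

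CST3, cystatin C, the secreted cystatin made by nearly all cells and a strong inhibitor of cathepsins, was expressed in both groups. It measured 82.5, 85.5 and 85.0 FPKM under the overexpression label and 17.4, 19.2 and 15.9 FPKM under the control label, with little spread in either group. Mean levels were 84.3 ± 1.6 and 17.5 ± 1.7 FPKM (± SD, n = 3 in each group), which differed 4.81-fold (log2 fold change 2.21 with an SE of 0.072, adjusted p = 5.19e-07 by limma). In the rest of the chromosome 20 cluster, CST9 had 64 reads against 0 and was at least 19.9-fold higher, while CST8, CST11 and CST9L, known mainly from the male reproductive tract, had 0 reads in all libraries.

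CST6 and CST7 were the other secreted cystatins above the filter. CST6, cystatin M/E, which inhibits legumain as well as cathepsins, lies on chromosome 11 and measured 24.7, 28.9 and 26.4 FPKM against 0.081, 0.23 and 0.16 FPKM, a 169-fold difference (limma adjusted p = 5.06e-08). CST7, cystatin F, is known from leukocytes, where it controls cathepsin C and so the activation of granule proteases. It measured 26.5, 25.8 and 25.2 FPKM against 0, 0.13 and 0.064 FPKM, with 1286 reads against 3, and was 404-fold higher (95% counting interval 138 to 1962). Without the second control-labelled library, which held 2 of the 3 reads, it was 804-fold higher. Of 6 leukocyte markers, 0 reached a mean of 1 FPKM. Their summed level was 0.781 to 0.998 FPKM against 0.159 to 0.475 FPKM, with 0 reads of CD3D or MS4A1 in any library. LYZ had 48 reads against 0 and CD14 37 against 24, while PTPRC had 0 against 5 and CD68 4 against 5.

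The stefins went apart. CSTA, stefin A, an inhibitor typical of squamous epithelium and leukocytes, was the cystatin that fell. It measured 0.124, 0.242 and 0.041 FPKM under the overexpression label and 2.90, 2.50 and 4.35 FPKM under the control label, a 24.0-fold lower level (log2 fold change -1.89 with an SE of 0.17, adjusted p = 6.03e-05 by limma). Its reads were 10 against 223, and without the second overexpression-labelled library the difference was 39.5-fold. CSTB, stefin B, found in most cells, measured 34.1, 33.5 and 32.8 FPKM against 27.2, 25.9 and 27.3 FPKM. It was 1.25-fold higher (log2 fold change 0.31, 95% interval 0.20 to 0.43, limma adjusted p = 8.55e-04), a small difference that stood above a tight spread. The coding sequences of the stefins are 60.8% identical.

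**Figure D5:**
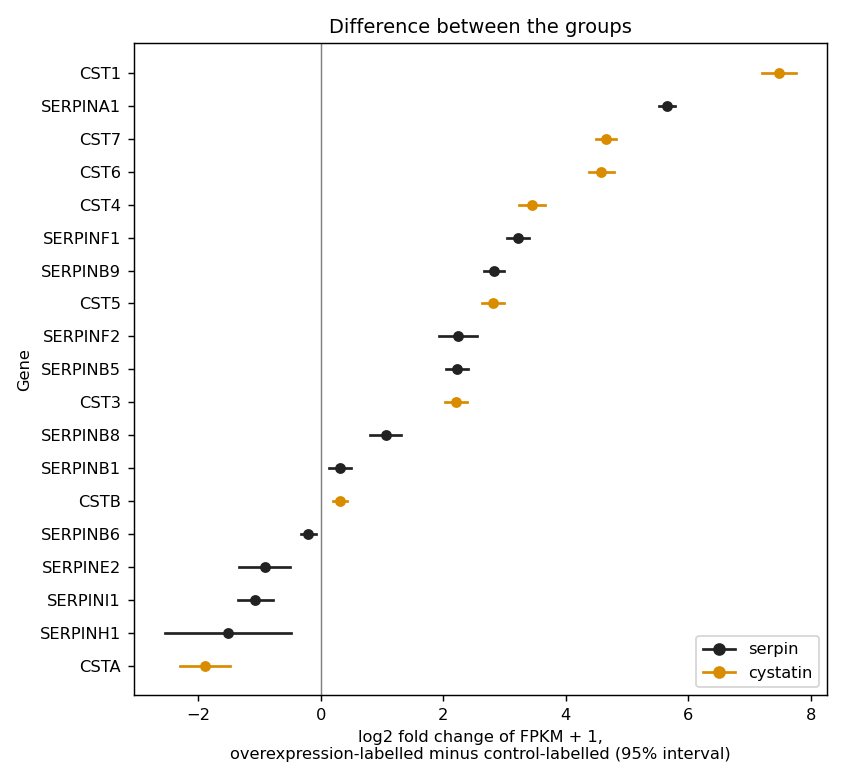
The log2 fold change of FPKM + 1 (overexpression-labelled minus control-labelled) with its 95% interval for 19 of the 20 tested members, serpins in black and cystatins in orange. CST1 lies at 7.48 and CSTA at -1.89; SERPINB1, CSTB and SERPINB6 lie within 0.32 of the zero line, and SERPINH1 has the widest interval.

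The enzymes that cystatins inhibit moved in both directions. Of 12 cysteine cathepsins and legumain genes, 8 were tested, 5 were higher and 2 lower, where 76.8% of all genes tested passed. The 8 had a median log2 fold change of 0.29. CTSB, cathepsin B, a target of both cystatin C and the stefins, was 2.74-fold higher (72.1 ± 1.1 against 26.4 ± 1.8 FPKM), and CTSS, cathepsin S, was 6.15-fold higher. CTSL, cathepsin L, was 3.68-fold lower (14.5 ± 0.49 against 53.4 ± 13.0 FPKM). CTSF, cathepsin F, had 0 reads under the overexpression label and 1030 under the control label, and was at least 368-fold lower. CTSS and CTSF reached the filter only through the group where each was higher, and so had to differ. CTSC, the enzyme that cystatin F controls, did not pass (1.94 ± 0.16 against 2.04 ± 0.51 FPKM, adjusted p = 0.817).

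Serine proteases of blood and leukocytes were mostly scarce. Of 16 listed as targets of serpins, 5 were tested, 3 higher and 2 lower, where 76.8% of all genes tested passed. The 5 had a median log2 fold change of 0.71. F12, coagulation factor XII, was 2.85-fold higher, and PROC, protein C, 2.84-fold higher. C1R and C1S, the complement proteases that SERPING1 blocks, were 13.8-fold and 13.1-fold lower. PROC, C1R and C1S reached the filter only through the group where each was higher, and so had to differ. F9 and F11 had 0 reads in all 6 libraries, and ELANE, neutrophil elastase, had 0 reads against 11.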

How the data were processed

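RNA sequencing of 6 SW480 libraries was used, 3 per group by their titles. The authors deposited a table of FPKM per gene, and the length of each gene. The table's name gives the unit. The sources used here name no counter and no use of strand. A mouse build, mm10, stands in the submitters' processing notes, but all 47 members matched human GENCODE release 29 (GRCh38) in identifier, position and symbol. The table held 0 further columns per sample.

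FPKM times gene length, divided by its smallest value above 0 in a library, gave whole reads (100% of values within 0.001). The deposited FPKM denominator was 1.04 to 1.05 times the read sum in the overexpression-labelled and 0.958 to 0.995 times in the control-labelled libraries. FPKM rebuilt with median-ratio size factors gave nearly the same counts as the deposited FPKM, 5241 genes higher and 5484 lower. A two-sided limma fit (version 3.58.1, R 4.3.3, trend on) used log2(FPKM + 1) of every gene whose mean reached 1 FPKM, with Benjamini-Hochberg adjustment over all genes tested and a threshold of 0.05. This scale understates changes of low genes. Folds are ratios of mean FPKM. Against 0 reads a fold is a lower bound from 3 reads over the group, and where a group held 1 to 3 reads its counting interval (95%, exact) is given. Both cover counting error only. Steps were tested on simulated reads. Sequence words of 50 bases and coding identities (global alignment) came from GENCODE transcripts, promoters from RefSeq.

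All members could be named, except that 1 tested member and 1 caspase are counted but not reported here, with up to 4 members past the threshold per related list and those at 0 reads. The members and lists were chosen with earlier results of these data known. Heat shock genes, single marker genes, PLAT, VTN, PLGRKT, CRTAP, CASP2, CTSC, P4HA2, PLOD3, GZMB, ELANE and HSPA1B were named after their values were seen. Alternatives covered the pseudocount, the filter, the scaling, the variance model, voom on the reads, a replicate block and each library left out. The replicate numbers did not pair the libraries.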

Additional observations from a re-analysis of the deposited data

How the results depend on the processing

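Of the 20 tested members, 19 kept their direction and an adjusted p under 0.05 in every one of 15 alternatives that tested them. Among the 20, 13 had reached the filter only through the group where they were higher, and so had to differ. The alternative with median-ratio size factors hardly changed the scaling, moving the median of all genes by 5.84e-08. The exception was SERPINB6, at -0.12 with voom and at -0.10 where the read sum replaced the deposited FPKM denominator. With a filter at a mean of 5 FPKM, 11 members were tested, 9 higher and 2 lower, fewer because fewer genes entered. With no filter 36 were tested, 20 higher, 5 lower and 11 not past the threshold, where 44.5% of all genes passed. Leaving out each library gave 14 to 15 higher and 5 lower. The 14 arose when an overexpression-labelled library was left out, as SERPINB8 then fell below the filter and 19 members were tested. With the replicate block the counts were 15 higher and 5 lower; same-numbered libraries deviated with correlations of -0.0059, -0.022 and 0.0075, so the numbers were not taken to pair them. Voom moved the median of all genes by 0.11 on the log2 scale. Of the 16 members with reads below the filter, 9 had at most 5 reads in all, too few to compare.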

Other observations

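Genes with serpin or cystatin names that are not protein-coding numbered 13, and 4 of them had reads. SERPINA2, a gene annotated as a polymorphic pseudogene next to SERPINA1, stood at 0.67, 0.71 and 0.84 FPKM under the overexpression label, with 0 reads under the control label. CST9LP2, a pseudogene in the cystatin cluster of chromosome 20, had 6, 7 and 5 reads under the former label and 0 under the latter. SERPINB9P1, a long noncoding RNA gene beside SERPINB9, measured 3.07, 2.09 and 3.11 FPKM against 1.81, 1.95 and 2.05 FPKM, so it was read in the control-labelled libraries, where SERPINB9 had 4 reads. SERPINH1P1, a processed pseudogene on chromosome 9, had at most 5 reads in any library.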
